A study of Mus musculus with 10 samples.

Results

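The mitochondrial ribosomal protein genes, the nuclear genes for the proteins of the ribosome inside mitochondria, were measured by RNA-seq in ASZ001 cells, a mouse basal cell carcinoma (BCC) line. Members were chosen by name, as every row whose symbol is Mrpl or Mrps followed by a number, with or without a letter from a to c, and whose mean was at least 1 RPKM (reads per kilobase of transcript, scaled to the mapped reads of the library) over all libraries of its table. Each of the 2 tables held 78 rows with such a symbol. All 78 were tested with SB431542, among 10842 genes tested, and 77 were tested with T-5224, among 10809. Mrpl23 was below the limit in the T-5224 table, at 0.377 and 0.351 RPKM with DMSO and 0.735 and 1.12 RPKM with T-5224.

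The study asked which transcripts of this line depend on AP-1, a family of Jun and Fos transcription factors, and on TGFβ signaling. Cells in low serum were treated for 24 hours with 20 µM T-5224, an inhibitor of AP-1 (n = 2), or with its DMSO control (n = 2), and in a separate experiment with 10 µM SB431542, an inhibitor of the TGFβ receptor kinase ALK5 (n = 3), or with its DMSO control (n = 3). All 10 libraries came from a single cell line, and the replicates were described as biological replicates. Comparisons were made within a table, against the DMSO controls found there.

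The mitochondrial ribosome, or mitoribosome, translates the few messenger RNAs made from mitochondrial DNA, which encode core subunits of the oxidative phosphorylation (OXPHOS) complexes. Its ribosomal RNAs are mitochondrial transcripts, whereas its proteins are encoded in the nucleus, made in the cytosol and imported. Some are counterparts of bacterial ribosomal proteins and others are found only in mitochondria. ETS family factors such as GABPA, the nuclear respiratory factor NRF1 and YY1 are known regulators of many of these genes.

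The depth of the libraries was between 31.9 and 51.4 M reads, worked out from the RPKM of short genes. DMSO replicate 1 of the SB431542 experiment stood apart from the other DMSO libraries. The SD of its log2 deviations from the mean of the other DMSO libraries was 0.272 over all genes and 0.263 over the members, against 0.161 and 0.190 over all genes and 0.132 and 0.154 over the members for the other DMSO libraries. Rn45s, the gene of the ribosomal RNA precursor, was at 770.3 RPKM in that library and at 2101 and 2155 RPKM in its DMSO neighbours, and it was at 1862 RPKM in one T-5224 library and 5184 RPKM in the other. The keratinocyte and BCC markers (Krt5, Krt14, Krt15, Krt17, Trp63, Cdh1, Gli1 and Ptch1) were all detected. Their summed level was 14706 to 15459 RPKM with DMSO and 2222 to 2335 RPKM with T-5224, with 7 of the 8 genes lower and Ptch1 higher, and it was 10615 to 10814 RPKM with DMSO and 7338 to 7884 RPKM with SB431542. Gli1, a target of Hedgehog signaling, was at 5.02 ± 0.203 RPKM with DMSO and 1.25 ± 0.0955 RPKM with T-5224 (SD, n = 2 each). The markers of fibroblasts summed to at most 2.84 RPKM, those of endothelium to at most 11.8 RPKM and those of immune cells to at most 33.2 RPKM in the T-5224 table, mostly from Dcn, Pecam1 and Cd68. The immune sum (4 genes) was 16.7 to 18.6 RPKM with DMSO and 32.7 to 33.2 RPKM with T-5224, where Ptprc and Cd3e were at 0, and the endothelial sum (2 genes) was 10.7 to 11.8 RPKM with DMSO and 4.11 to 4.67 RPKM with T-5224, where Cdh5 was at 0. The part of these differences in the results on the mitoribosome was not tested.

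In the DMSO control cells the members were expressed over a wide range. The mean level in the DMSO libraries ran from 1.20 to 113 RPKM in the T-5224 table, with a median of 30.6 RPKM, and from 3.16 to 146 RPKM in the SB431542 table, with a median of 31.9 RPKM. Mrpl12, the stalk protein that recruits translation factors, was the highest member in both tables. In the T-5224 table its DMSO libraries were at 110.3 and 115 RPKM, and in the SB431542 table at 152, 141 and 147 RPKM. Next in the T-5224 table came Mrpl33, at 92.8 and 87.5 RPKM, and Mrps21, at 85.6 and 84.7 RPKM, both small proteins with bacterial counterparts. Next in the SB431542 table came Mrpl42, a protein found only in mitochondria, at 167, 103 and 106 RPKM, and Mrpl13, a core protein of the large subunit, at 89.4, 84.5 and 84.2 RPKM. DMSO replicate 1 was therefore the sole high library for Mrpl42, while the order of Mrpl12 above Mrpl13 held in every DMSO library of that table. At the low end was Mrpl48 of the central protuberance, at 1.15 and 1.24 RPKM in the T-5224 table and 3.12, 3.10 and 3.28 RPKM in the SB431542 table. Mrps36, at 3.74 and 4.16 RPKM, and Mrps33, at 5.03 and 4.12 RPKM, were the next lowest in the T-5224 table. Mrpl17, at 6.48, 6.85 and 6.57 RPKM, and Mrps25, at 7.67, 6.4 and 6.05 RPKM, were the next lowest in the SB431542 table. The libraries of Mrpl17 and Mrps25 overlapped, so their order was not resolved.

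With T-5224, most members rose. Of the 77 tested, 51 were higher than in DMSO (66.2%), 11 were lower (14.3%) and 15 were not called, by limma at an adjusted p under 0.05. Over all genes tested, 40.3% were higher and 39.4% were lower. The median log2 fold change of the members was 0.35, with an interquartile range of 0.07 to 0.63, against 0.00 over all genes (interquartile range −0.50 to 0.50), and 60 of the 77 fold changes were above 0. In 55 members both T-5224 libraries were above both DMSO libraries, in 14 they were below, and in 8 the groups overlapped, where all genes gave 45.1% above and 44.5% below. Summed over the members, the level was 2809.8 and 2756 RPKM with DMSO and 3604 and 3475 RPKM with T-5224. RPKM are relative to the reads of each library, and in bulk RNA a change in the RNA per cell and a change in the mix of cells cannot be told apart.

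**Figure D1:**
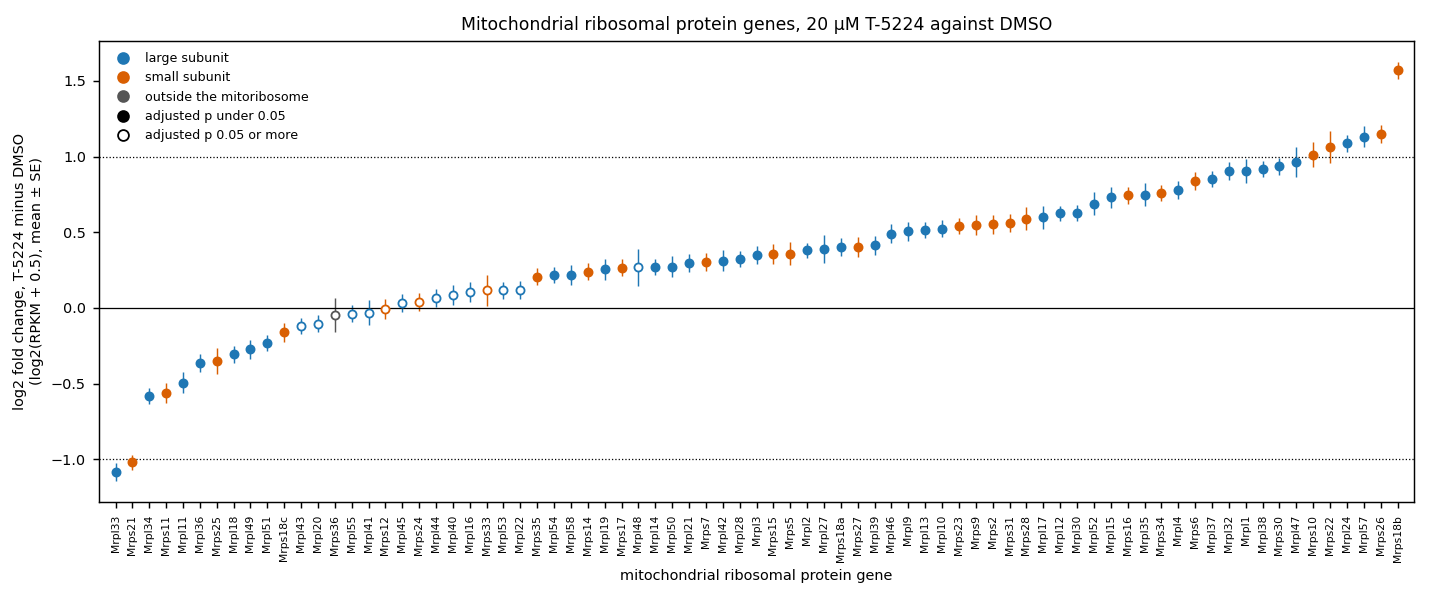
Log2 fold change (T-5224 minus DMSO, on log2(RPKM + 0.5)) of each of the 77 members tested, ordered by size, with the estimate and its standard error from limma (n = 2 each). Blue is the large subunit, orange the small subunit and grey Mrps36, and filled points have an adjusted p under 0.05. The points run from −1.09 for Mrpl33 to 1.57 for Mrps18b, and most filled points lie above 0.

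Changes of more than 2-fold were few. With a log2 fold change beyond 1 as well as an adjusted p under 0.05, 6 members were up and 2 were down, where 10.4% of all genes were up and 10.6% were down. The rest of the rise was therefore made of changes under 2-fold. Mrps26, Mrps22, Mrps10 and Mrps18b of the small subunit and Mrpl57 and Mrpl24 of the large subunit were up, and Mrps21 and Mrpl33 were down.

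Mrps18b had the largest rise of all members. It encodes one of the mitochondrial relatives of bacterial ribosomal protein S18 (mm9 chromosome 17, 36047324 to 36053334, minus strand, 7 exons). It was at 16.6 and 16.0 RPKM with DMSO and at 49.5 and 49.0 RPKM with T-5224. Both T-5224 libraries were far above both DMSO libraries, and the log2 fold change was 1.57 ± 0.058 (SE, adjusted p = 5.75e-10, limma), a fold of 2.97 on that scale.

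Mrps26, a small subunit protein found only in mitochondria (chromosome 2, 130389478 to 130394431, plus strand, 4 exons), was at 27.1 and 28.0 RPKM with DMSO and at 64.0 and 59.7 RPKM with T-5224. Its groups were well apart and the log2 fold change was 1.15 ± 0.059 (adjusted p = 8.42e-09). Mrps22, another protein of the small subunit without a bacterial counterpart (chromosome 9, 98489152 to 98502098, minus strand, 8 exons), was at 11.9 and 9.04 RPKM with DMSO and at 22.1 and 22.4 RPKM with T-5224. The T-5224 libraries lay together above DMSO libraries that differed more among themselves, and the log2 fold change was 1.06 ± 0.10 (adjusted p = 1.97e-06). Mrps10, the counterpart of bacterial S10 (chromosome 17, 47505836 to 47518366, plus strand, 7 exons), was at 20.5 and 16.9 RPKM with DMSO and at 38.6 and 37.4 RPKM with T-5224, without overlap. Its log2 fold change was 1.01 ± 0.082 (adjusted p = 4.06e-07), so it lay just inside the limit of 2-fold. Without the DMSO library in which both genes were lower, both came under the limit, at 0.87 for Mrps22 and 0.88 for Mrps10, and without the other DMSO library they were at 1.25 and 1.15. Mrps10 was also under it, at 0.99, without T-5224 replicate 1.

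In the large subunit, the small protein Mrpl57 (chromosome 14, 58445076 to 58447582, plus strand, 2 exons), was at 9.28 and 9.22 RPKM with DMSO and at 21.7 and 20.1 RPKM with T-5224. The log2 fold change was 1.13 ± 0.069 (adjusted p = 3.71e-08), with the groups far apart. Mrpl24, the counterpart of a bacterial protein that binds the ribosomal RNA early in assembly and ends up near the exit of the peptide tunnel (chromosome 3, 87723428 to 87727594, plus strand, 6 exons), was at 51.8 and 49.1 RPKM with DMSO and at 112 and 104 RPKM with T-5224. It too was clearly separated (log2 fold change 1.09 ± 0.058, adjusted p = 1.21e-08), and it was the most abundant of the 6 members that were up.

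The largest falls were in proteins with bacterial counterparts. Mrpl33 of the large subunit (chromosome 5, 31899308 to 32004345, plus strand, 4 exons) was at 92.8 and 87.5 RPKM with DMSO and at 43.8 and 40.6 RPKM with T-5224, a log2 fold change of −1.09 ± 0.059 (adjusted p = 1.44e-08). Mrps21 of the small subunit (chromosome 3, 95666557 to 95675442, minus strand, 3 exons) was at 85.6 and 84.7 RPKM with DMSO and at 42.2 and 41.2 RPKM with T-5224, a log2 fold change of −1.02 ± 0.052 (adjusted p = 8.52e-09). With DMSO, Mrpl12 was the one member above these genes, and in neither did the groups overlap. Mrpl34 of the large subunit was at 80.3 and 83.9 RPKM with DMSO and at 56.1 and 53.3 RPKM with T-5224 (log2 fold change −0.58 ± 0.055, adjusted p = 1.57e-06). Mrps11, which lies on the platform of the small subunit, was at 19.9 and 20.5 RPKM with DMSO and at 13.8 and 13.3 RPKM with T-5224 (log2 fold change −0.56 ± 0.064, adjusted p = 7.98e-06). Mrpl11, of the base of the stalk, was at 15.0 and 14.9 RPKM with DMSO and at 10.4 and 10.6 RPKM with T-5224 (log2 fold change −0.49 ± 0.067, adjusted p = 3.39e-05). In all 3 genes both T-5224 libraries were below both DMSO libraries. The other 6 members that were lower, Mrpl36, Mrps25, Mrpl18, Mrpl49, Mrpl51 and Mrps18c, had log2 fold changes from −0.36 to −0.16.

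**Figure D2:**
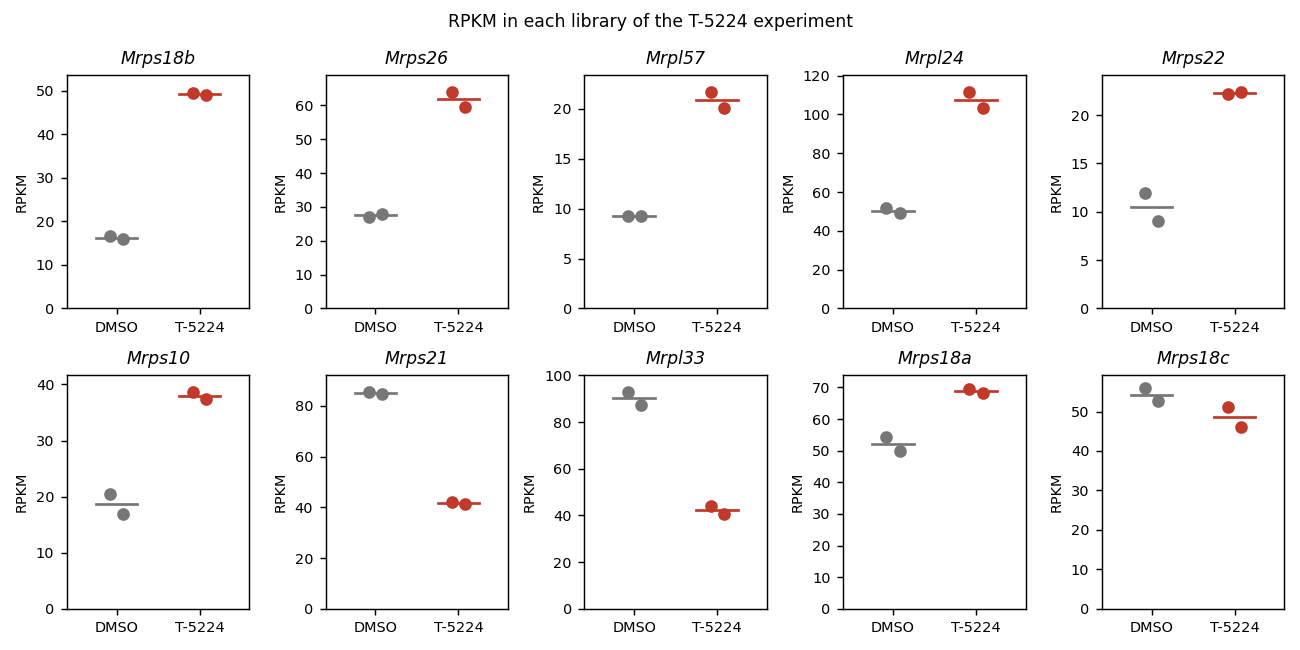
RPKM in each library (points) and the mean (line) of the 8 members that were up or down 2-fold with T-5224, and of Mrps18a and Mrps18c, with each y axis starting at 0. In every panel the DMSO libraries (grey, n = 2) and the T-5224 libraries (red, n = 2) are apart, lower with T-5224 in Mrps21, Mrpl33 and Mrps18c.

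The relatives of bacterial S18 moved unequally. Mammals have 3 of them, of which Mrps18b and Mrps18c sit in the small subunit and Mrps18a in the large. Mrps18a was at 54.2 and 49.98 RPKM with DMSO and at 69.5 and 68.4 RPKM with T-5224 (log2 fold change 0.40 ± 0.057, adjusted p = 5.13e-05). Mrps18c was at 56.0 and 52.6 RPKM with DMSO and at 51.1 and 46.1 RPKM with T-5224 (log2 fold change −0.16 ± 0.064, adjusted p = 0.0373). As a share of the summed level of the 3 genes, Mrps18b was at 13.1% and 13.5% with DMSO and at 29.1% and 29.97% with T-5224, and Mrps18c at 44.2% and 44.4% with DMSO and at 30.04% and 28.2% with T-5224. Mrps18b thus went from the lowest of the 3 to about the level of Mrps18c. A copy of Mrps18b lies elsewhere in the genome (99.9% identity over 65.3% of the transcript), and none was found for Mrps18a or Mrps18c. Its level and share are uncertain to that extent. The mean DMSO level of Mrps18b was 16.3 RPKM in the T-5224 table and 35.8 RPKM in the SB431542 table. With SB431542 none of the 3 genes was called, and the share of Mrps18b was 26.0%, 25.8% and 27.6% against 30.3%, 24.1% and 24.0% with DMSO.

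Both subunits took part. In the large subunit 32 of 50 members were higher with T-5224 and 7 were lower, with a median log2 fold change of 0.32. In the small subunit 19 of 26 were higher (73.1%) and 4 were lower (15.4%), with a median of 0.38. Over all genes tested with T-5224, 40.3% were higher and 39.4% were lower. Mrps36, whose protein is assigned to the 2-oxoglutarate dehydrogenase complex and not to the mitoribosome, was at 3.74 and 4.16 RPKM with DMSO and 4.23 and 3.42 RPKM with T-5224 and was not called. The other members of lowest level, Mrpl48 (1.49 and 1.6 RPKM with T-5224, log2 fold change 0.27 ± 0.12, adjusted p = 0.0633) and Mrps33 (4.90 and 5.06 RPKM with T-5224, 0.12 ± 0.10, adjusted p = 0.314), were not called either. Proteins with a bacterial counterpart had medians of 0.38 in the large subunit (20 of 29 higher, 5 lower) and 0.33 in the small (11 of 16 higher, 3 lower). Those listed as found only in mitochondria had medians of 0.24 in the large subunit (9 of 18 higher, 2 lower) and 0.54 in the small (7 of 9 higher, 1 lower). Mrpl57 (1.13), Mrpl58 (0.22), Mrps18a (0.40) and Mrps18b (1.57) were on neither list, although Mrpl57 also lacks a bacterial counterpart, and the difference between the classes was not tested.

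Within structural parts of the large subunit the members were mixed. In the stalk, which binds translation factors, Mrpl12 (0.62), Mrpl10 (0.52) and Mrpl54 (0.22) were higher on the log2 scale, Mrpl11 was lower and Mrpl53 was not called (0.12, adjusted p = 0.0846). Mrpl12, the most abundant member, went from 110.3 and 115 RPKM to 175 and 173 RPKM. In the central protuberance, which contacts the small subunit, Mrps30 (0.93), Mrpl38 (0.92) and Mrpl46 (0.49) were higher, Mrpl18 was lower (−0.31), and Mrpl40 and Mrpl48 were not called. Around the exit of the peptide tunnel, Mrpl24 and Mrpl47 (0.96) were higher, while Mrpl22, Mrpl44 and Mrpl45, the protein that anchors the mitoribosome to the inner membrane, were not called. Mrpl58, a peptidyl-tRNA hydrolase that is built into the large subunit, was higher (0.22).

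The other genes of the mitoribosome and its neighbours were taken from lists chosen by function. Their counts stand beside 40.3% higher, 39.4% lower, 10.4% up 2-fold and 10.6% down 2-fold over all genes tested with T-5224. The lists were not tested against these shares. Of the 5 mitoribosomal proteins whose symbols do not begin with Mrp, Chchd1 (log2 fold change 0.91), Gadd45gip1 (0.79), Dap3 (0.26) and Aurkaip1 (0.25) were higher with T-5224 and Ptcd3 was not called (0.07). Of 25 genes for assembly of the mitoribosome and modification of its RNA, 15 were higher and 4 were lower, with a median of 0.36, and the methyltransferases Mrm1 (1.65) and Mrm3 (1.21) were up 2-fold. Of 20 mitochondrial aminoacyl-tRNA synthetases and related enzymes, 10 were higher and 4 were lower, with a median of 0.23. The 16 mitochondrial translation factors were divided, with 6 higher and 6 lower and a median of 0.02. Of 9 genes for transcription and replication of mitochondrial DNA, 5 were higher and 1, the transcription factor Tfb2m, was lower (−1.34).

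Mitochondrial chaperones and proteases formed a further list. Of 14, 9 were higher and 3 were lower, with a median of 0.77, where 40.3% of all genes were higher and 39.4% were lower. Those up 2-fold were the protease Lonp1 (1.96), the chaperones Hspa9 (1.89), Dnaja3 (1.47) and Hspd1 (1.12), and the protease Clpp (1.40). Among all genes, 10.4% were up 2-fold. Hspa9 was at 131 ± 7.17 RPKM with DMSO and 488 ± 32.1 RPKM with T-5224 (SD, n = 2 each), and Lonp1 at 50.7 ± 0.131 and 199 ± 6.91 RPKM.

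The cytosolic ribosomal proteins and the nuclear OXPHOS subunits stood on either side of the members. Of 80 cytosolic ribosomal protein genes, 62 were higher with T-5224 and 5 were lower, with a median of 0.60, and 8 were up 2-fold. Of 74 OXPHOS subunits, 30 were higher and 32 were lower, with a median of 0.00. Over all genes, 40.3% were higher, 39.4% were lower, 10.4% were up 2-fold and 10.6% were down 2-fold. The OXPHOS subunits down 2-fold were Uqcrh (−1.81), Atp5k (−1.35), Cox6b1 (−1.11), Uqcr11 (−1.05) and Atp5g3 (−1.02), and Cyc1 was up (1.02). The tables held 0 rows of genes encoded in mitochondrial DNA. The difference between the lists was not tested. The median DMSO level of the cytosolic ribosomal proteins was 36.1 RPKM in this table and 528 RPKM in the SB431542 table. The part of that gap in their fold changes was not tested either.

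**Figure D3:**
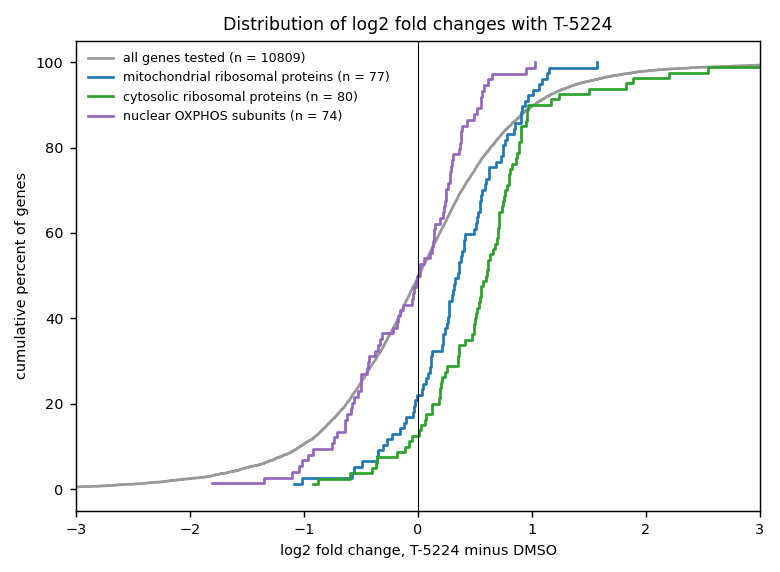
Cumulative percent of genes (y axis) at or below each log2 fold change with T-5224 (x axis, shown from −3 to 3) for the 77 members (blue), 80 cytosolic ribosomal protein genes (green), 74 nuclear OXPHOS subunits (purple) and all 10809 genes tested (grey). The curve of the members lies right of that of all genes through the middle of the range, with medians of 0.35 and 0.00, and the curve of the cytosolic ribosomal proteins further right, at 0.60.

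Regulators of mitochondrial genes were given by value. With T-5224, Myc was at 34.0 ± 3.22 RPKM with DMSO and 77.8 ± 0.787 RPKM with T-5224 (log2 fold change 1.18, adjusted p = 1.83e-08). Pprc1, a coactivator of the PGC-1 family, was at 14.9 ± 0.518 and 36.1 ± 0.810 RPKM (1.25, adjusted p = 6.13e-09). Nrf1 (0.67) and Gabpb1 (0.88) were higher, whereas Ppargc1a, the PGC-1α coactivator, was lower (−0.85) and so was Esrra (−0.18). Gabpa (−0.07) and Yy1 (−0.06) were not called, and Ppargc1b was below the limit of expression. With SB431542, Ppargc1b (0.70), Esrra (0.51), Pprc1 (0.22) and Nrf1 (0.22) were higher, and Myc, Gabpa, Gabpb1, Yy1 and Ppargc1a were not called.

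Among the members, the change with T-5224 went with the length of the coding sequence. Of 23 members with a coding length under 450 bases, 10 were higher and 6 were lower, with a median log2 fold change of 0.12. Of 39 from 450 to under 900 bases, 28 were higher and 5 were lower (median 0.49), and of 15 with 900 bases or more, 13 were higher and 0 were lower by limma (median 0.41), with all 15 log2 fold changes above 0. Among the members 43.5%, 71.8% and 86.7% of the 3 length classes were higher, against 42.4%, 49.2% and 37.9% over all genes. The shares lower were 26.1%, 12.8% and 0%, against 39.0%, 32.8% and 41.3% over all genes. Over all genes the medians of the 3 length classes were 0.01, 0.16 and −0.03. The Spearman correlation of coding length with the log2 fold change was 0.44 across the 77 members and −0.12 across 10201 genes. It was 0.21 across 78 cytosolic ribosomal proteins, where the medians of the 3 length classes were 0.51, 0.66 and 0.83. Across 73 OXPHOS subunits it was 0.32, but the class medians were −0.17, 0.25 and −0.27, so the longest class was not the highest. The members share their libraries and are not independent replicates. With SB431542 the correlation was 0.05 across the 78 members.

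**Figure D4:**
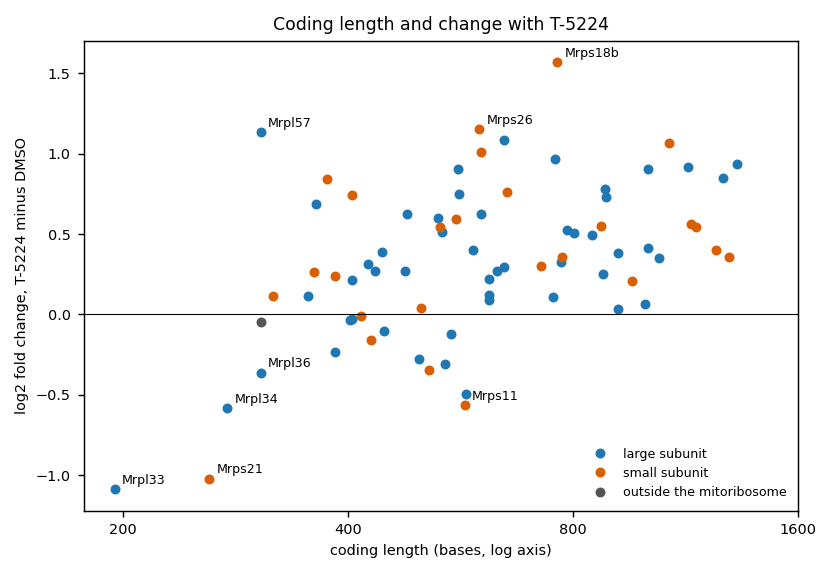
Log2 fold change with T-5224 (y axis) against coding length in bases (x axis, log scale) for the 77 members, blue for the large subunit, orange for the small and grey for Mrps36. The members with the shortest coding sequences, Mrpl33 and Mrps21, have the lowest values, and no member of 900 bases or more is called lower.

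SB431542 moved the members little. Of 78 tested, 9 were higher, 0 were lower and 69 were not called by limma at an adjusted p under 0.05, where 10.2% of all genes were higher and 10.0% were lower. At an unadjusted p under 0.05, 19 members were higher and 0 were lower, where 19.1% of all genes were higher and 17.0% were lower. No member was beyond 2-fold in either direction, where 0.231% of all genes were up 2-fold and 0.581% were down. The median log2 fold change was 0.10 against 0.01 over all genes. All 3 SB431542 libraries were above all 3 DMSO libraries in 28 members, below in 1 and overlapping in 49, where 23.9% of all genes were above and 21.3% were below. The summed level of the members was 2886, 2768 and 2803 RPKM with DMSO and 3019, 3043 and 2999.7 RPKM with SB431542.

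The largest rises were in proteins with bacterial counterparts. Mrpl28 was at 54.7, 69.6 and 72.0 RPKM with DMSO and at 86.0, 86.8 and 81.1 RPKM with SB431542 (log2 fold change 0.38 ± 0.10, adjusted p = 0.0408). Mrpl12 was at 152, 141 and 147 RPKM with DMSO and at 189.3, 183 and 191 RPKM with SB431542 (0.36 ± 0.052, adjusted p = 0.00463). Mrps16 was at 24.4, 27.1 and 27.8 RPKM with DMSO and at 32.4, 36.0 and 32.9 RPKM with SB431542 (0.35 ± 0.070, adjusted p = 0.0154). In these 3 genes no DMSO library reached the lowest SB431542 library, and DMSO replicate 1 was the lowest of Mrpl28 and Mrps16. Mrpl18 of the central protuberance was at 58.2, 64.3 and 66.7 RPKM with DMSO and at 79.7, 77.2 and 81.1 RPKM with SB431542 (0.33 ± 0.063, adjusted p = 0.0124), again apart. Mrps14, which lies in the head of the small subunit, was at 14.7, 25.5 and 24.7 RPKM with DMSO and at 26.4, 27.5 and 25.7 RPKM with SB431542, and its estimate of 0.33 ± 0.19 was not called (adjusted p = 0.256). DMSO replicate 1 was far below the others, and without it the estimate was 0.077 (adjusted p = 0.202). The other members called higher were Mrps27, Mrps6, Mrps26, Mrpl45 and Mrpl46, with log2 fold changes from 0.18 to 0.28.

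The 5 lowest estimates were not called. Mrps21 was at 102.7, 73.6 and 72.9 RPKM with DMSO and at 67.4, 74.7 and 71.4 RPKM with SB431542. Mrpl32, a zinc-binding protein of the large subunit, was at 81.2, 57.2 and 56.7 RPKM with DMSO and at 55.4, 56.5 and 55.5 RPKM with SB431542. Mrpl23, which lies at the tunnel exit, was at 27.5, 20.4 and 19.4 RPKM with DMSO and at 21.2, 18.7 and 18.6 RPKM with SB431542. In all 3, DMSO replicate 1 was high and the other DMSO libraries were close to the SB431542 libraries. Mrpl39 (25.1, 19.7 and 18.4 RPKM with DMSO, 18.4, 18.8 and 18.5 RPKM with SB431542) and Mrps31 (21.3, 16.7 and 16.7 RPKM with DMSO, 15.8, 16.6 and 17.2 RPKM with SB431542) had the same arrangement. The log2 fold changes of these 5 genes were between −0.20 and −0.13, with adjusted p from 0.295 to 0.394, and without DMSO replicate 1 they were between −0.043 and −0.012.

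**Figure D5:**
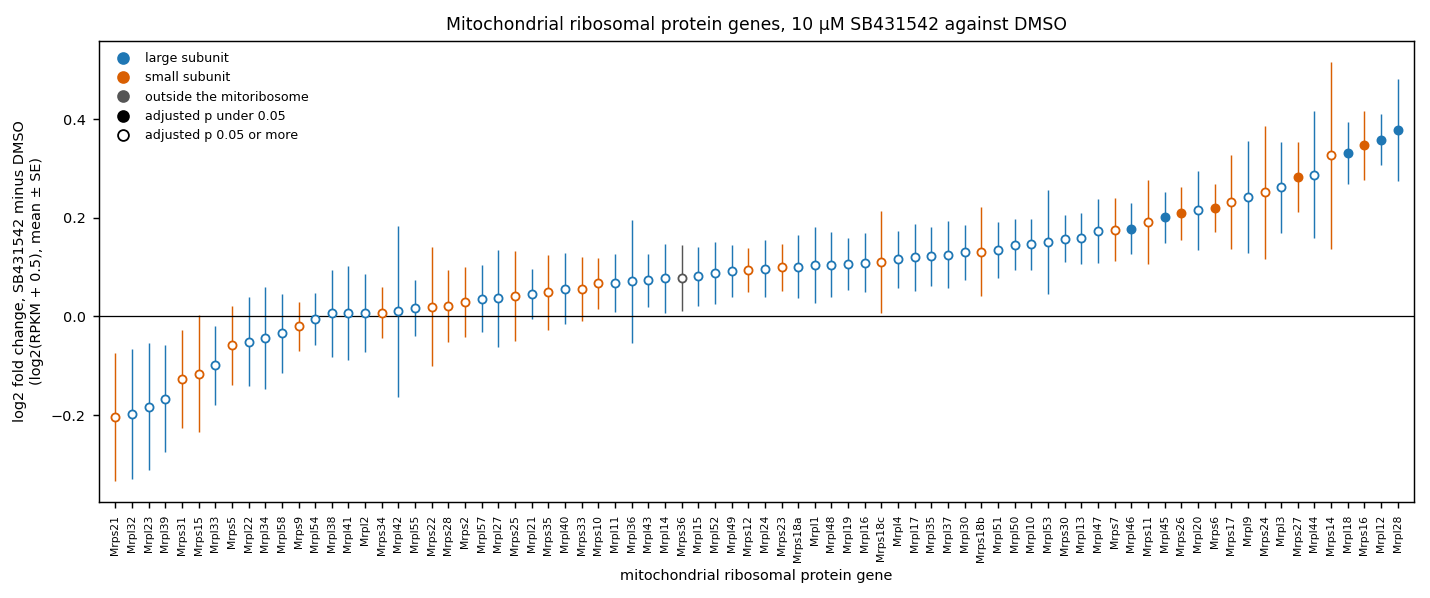
Log2 fold change (SB431542 minus DMSO, on log2(RPKM + 0.5)) of each of the 78 members, ordered by size, with the estimate and its standard error from limma (n = 3 each). Colours are blue for the large subunit, orange for the small and grey for Mrps36, and filled points have an adjusted p under 0.05. The 9 filled points are all above 0, and no estimate is beyond 0.38 in size.

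The count of 9 moved when most of the libraries were left out singly. Without DMSO replicate 3 it stayed near, at 7, and the share of all genes in that fit is not given here. Without DMSO replicate 1, 22 members were higher and 0 were lower, where 19.9% of all genes were higher and 17.5% were lower, and the 22 included all 9. Without DMSO replicate 2 the count was 4, where 5.96% of all genes were higher, and without SB431542 replicate 1 it was 2, where 3.29% were. It was 1 without SB431542 replicate 2 and 1 without SB431542 replicate 3, where 2.76% and 2.83% of all genes were higher. The share of all genes called thus moved from fit to fit as well. Mrpl12 was called in each of these fits. Mrpl28 lost its call without DMSO replicate 2 (adjusted p = 0.0613) or without any 1 of the SB431542 libraries (adjusted p from 0.105 to 0.136), and Mrpl18 lost it without any 1 of the SB431542 libraries (adjusted p from 0.0504 to 0.0659). Mrps16 lost it without SB431542 replicate 2 or 3 (adjusted p = 0.0714 and 0.0604). Without DMSO replicate 1, Mrpl13 (log2 fold change 0.19, adjusted p = 0.00521) and Mrpl42 (0.24, adjusted p = 0.00396) were called higher. With SB431542, Mrpl42 was at 118, 122 and 130.1 RPKM and Mrpl13 at 95.6, 99.6 and 93.0 RPKM, and neither was called with all libraries. The members of lowest level, Mrpl48 (3.49, 3.36 and 3.47 RPKM with SB431542), Mrpl17 (6.75, 7.70 and 7.33 RPKM) and Mrps25 (7.04, 6.60 and 7.02 RPKM), were not called.

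The 2 experiments have no libraries in common. Of the 77 members tested in both, 51 had a log2 fold change above 0 in both, 3 below 0 in both and 23 of opposite sign, or 66.2%, 3.9% and 29.9%. Over the 10462 genes tested in both these shares were 33.0%, 31.6% and 35.4%. Taken singly, 65 of 78 members were above 0 with SB431542 and 60 of 77 with T-5224. Over all genes these counts were 5598 of 10842 and 5433 of 10809. Agreement of sign beyond these single counts was not tested. Mrpl12, Mrpl28, Mrpl46, Mrps6, Mrps16, Mrps26 and Mrps27 were higher with both inhibitors, which is 7 of the 9 members higher with SB431542 and 7 of the 51 higher with T-5224. As a share of the genes tested in both, this was 9.09% of the members and 7.08% of 10462 genes. Mrpl18 was higher with SB431542 and lower with T-5224, at 45.0 and 46.5 RPKM with DMSO and 38.1 and 35.7 RPKM with T-5224. Mrpl45 was higher with SB431542 and not called with T-5224. Across the 77 members, the Pearson correlation of the log2 fold changes of the 2 experiments was 0.13 and the Spearman correlation 0.08, against 0.44 and 0.41 across all 10462 genes.

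Reads of some members can be shared with another locus. A near-identical copy elsewhere in the mm9 genome (at least 95% identity over at least 50% of the transcript) was found for 13 of the 78 members, among them Mrps18b (99.9% identity over 65.3% of the transcript), Mrps10, Mrps21, Mrpl23, Mrpl42 and Mrps16, and their values are uncertain to that extent. The mean level with DMSO was 61.6 times as high in the SB431542 table as in the T-5224 table for Mrpl23, 10.0 times for Mrps36 and 7.35 times for Mrps33, all with such a copy. The median ratio between the tables was 1.69 over the 13 members with a copy and 0.927 over the 65 without, and the tables were normalized separately. How reads that match several places were counted was not given in the sources used here, and whether both tables were counted alike was not tested. The cytosolic ribosomal proteins, a family with many processed copies, had a median DMSO level of 528 RPKM in the SB431542 table and 36.1 RPKM in the T-5224 table. Of the 65 members without a copy, 43 were higher with T-5224 and 10 were lower, with a median log2 fold change of 0.35. Over all genes, 40.3% were higher and 39.4% were lower.

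Exons of 27 members overlapped another annotated gene. The libraries were stranded, and the strand setting of the counting was not given in the sources used here. The overlap was on the same strand for Mrpl33 with Babam2 (147 of 7473 exon bases) and Mrpl53 with Ccdc142 (640 of 735). So it was for Mrps34 with Nme3, Mrps6 with Slc5a3, Mrps24 with Urgcp and Mrpl48 with D630004N19Rik. Of members up 2-fold, some overlapped a gene on the opposite strand. These were Mrps18b with Gm16279 (638 of 2089), Mrpl24 with Rrnad1 (594 of 2255) and Mrps26 with 4930473A02Rik (8 of 4358). Mrpl46 and Mrps11, both members, share 173 exon bases on opposite strands, and with T-5224 the one was higher (0.49) and the other lower (−0.56). Of the 41 members with neither a copy nor an overlap, 29 were higher with T-5224 and 5 were lower, with a median of 0.36. Over all genes, 40.3% were higher and 39.4% were lower.

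Some members start close to a gene on the other strand, and the share of all genes that do so was not worked out. For 17 members the start of a protein-coding gene on the opposite strand lay within 1000 bases, head to head, with at most 100 bases of overlap. In 14 pairs both genes were tested with T-5224. Mrpl46 and Mrps11 start on opposite strands but overlap by more, so they are not among these pairs. Both genes were higher in 4 pairs and both lower in 0, and the member was higher and its partner lower in 4. The member was lower and its partner higher in 3 pairs, and at least 1 gene was not called in 3. Over all genes tested with T-5224, 40.3% were higher and 39.4% were lower, and the pairs were not tested against these shares. Mrps18b starts 45 bases from Ppp1r10, a regulatory subunit of protein phosphatase 1, which was at 25.7 ± 0.858 RPKM with DMSO and 11.3 ± 0.384 RPKM with T-5224 (log2 fold change −1.15, adjusted p = 2.11e-08), opposite to Mrps18b. Mrpl57 starts 76 bases from Ska3, a kinetochore gene that rose as it did (1.16 and 1.13). Mrpl49 starts 135 bases from Fau, which encodes a cytosolic ribosomal protein, with log2 fold changes of −0.27 and 0.66.

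The promoters of the members with the largest changes are shown because these genes moved in opposite directions. They run from 250 bases before to 50 bases after the start, 5′ to 3′ on the strand of the gene (RefSeq, GRCm38.p6), with capitals marking matches on either strand to the motif of NRF1 (GCATGCGC), of ETS factors (CCGGAAG) or of AP-1 (TGANTCA). Mrps18b (chr17:35916391-35916690, minus strand) and Mrps26 (chr2:130563507-130563806, plus strand) were up, and Mrpl33 (chr5:31613701-31614000, plus strand) and Mrps21 (chr3:95871465-95871764, minus strand) were down.
Mrps18b: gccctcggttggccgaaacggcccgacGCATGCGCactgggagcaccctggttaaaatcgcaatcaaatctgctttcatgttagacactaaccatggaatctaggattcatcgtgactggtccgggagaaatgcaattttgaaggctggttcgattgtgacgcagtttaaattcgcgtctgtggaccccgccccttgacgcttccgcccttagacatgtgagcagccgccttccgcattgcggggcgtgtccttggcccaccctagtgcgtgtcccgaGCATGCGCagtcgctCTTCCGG
Mrps26: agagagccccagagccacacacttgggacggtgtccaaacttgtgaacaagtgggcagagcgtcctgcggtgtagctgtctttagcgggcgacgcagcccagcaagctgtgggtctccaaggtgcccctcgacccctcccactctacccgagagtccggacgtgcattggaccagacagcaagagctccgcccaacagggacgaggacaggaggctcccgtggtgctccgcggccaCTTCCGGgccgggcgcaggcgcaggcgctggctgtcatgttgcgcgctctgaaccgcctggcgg
Mrpl33: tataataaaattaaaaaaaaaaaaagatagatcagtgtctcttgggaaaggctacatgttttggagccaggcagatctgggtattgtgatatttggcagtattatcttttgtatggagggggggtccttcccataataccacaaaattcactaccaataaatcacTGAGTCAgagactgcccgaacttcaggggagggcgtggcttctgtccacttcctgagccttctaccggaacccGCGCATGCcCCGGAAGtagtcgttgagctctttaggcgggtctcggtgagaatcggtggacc
Mrps21: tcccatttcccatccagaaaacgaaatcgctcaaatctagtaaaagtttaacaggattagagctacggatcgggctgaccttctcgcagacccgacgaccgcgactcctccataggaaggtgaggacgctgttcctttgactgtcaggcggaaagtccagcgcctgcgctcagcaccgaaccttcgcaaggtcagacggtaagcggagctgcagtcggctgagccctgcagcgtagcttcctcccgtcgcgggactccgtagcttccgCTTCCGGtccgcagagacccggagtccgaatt
Each of the 4 windows holds an ETS match, as do those of Mrps22 and Mrpl57, while those of Mrps10 and Mrpl24, also up 2-fold, hold no match to any motif searched. Mrps18b and Mrpl33, which moved in opposite directions, also hold NRF1 matches, and Mrpl33 holds an AP-1 match.

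Of the 78 members, 69 had a promoter in the RefSeq table, with 75 windows in all. The ETS motif was in 34.7% of the members' windows, against 18.9% of the windows of genes tested with T-5224 and 8.86% of all windows. The YY1 motif (AAGATGGC) was in 16.0%, 4.78% and 2.75%, and the NRF1 motif in 10.7%, 5.59% and 2.71%. Other lists held these motifs too, with the ETS, YY1 and NRF1 motifs in 36.0%, 10.7% and 4.0% of the windows of cytosolic ribosomal proteins and 24.2%, 13.6% and 15.2% of those of OXPHOS subunits. The E-box (CACGTG), which MYC can bind, was in 9.33% of the members' windows, 10.6% of those of genes tested with T-5224 and 7.15% of all windows. Overlapping windows of Mrpl2 that hold the E-box were each counted. The AP-1 motif was in 4.0% of the members' windows, 4.98% of those of genes tested with T-5224 and 7.81% of all windows. Both strands were searched, and none of these motifs contains another. Among the windows of members higher with T-5224, 14 of 45 held the ETS motif and 1 of 45 the AP-1 motif, and among those of members lower with T-5224, 6 of 11 and 2 of 11. The AP-1 matches were in Mrpl33, Mrps25 and Mrps5, of which the first and second were lower with T-5224 and Mrps5 was higher (0.36). A match is a run of letters and does not show that a factor binds there.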

How the data were processed

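RNA-seq libraries of ASZ001 cells (TruSeq stranded mRNA) were aligned by the authors to mm9 with TopHat, and the RPKM values deposited for each gene came from HOMER (versions not given in the sources used here). The 10 value columns of the 2 tables were all used. The DMSO columns of the T-5224 table are numbered 1 and 2 and the labels number these samples 4 and 5, so they were assigned to the group only.

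Rows whose symbol had turned into a date (22 and 23 of the 2 tables) were dropped. Genes with a mean of at least 1 RPKM were fitted on log2(RPKM + 0.5) in R 4.3.3 by limma 3.58.1 (empirical Bayes, trend on the mean). The p-values were adjusted by Benjamini-Hochberg over all genes of the table. Fold changes on this scale understate those of low genes. The fit was tested on simulated data. The study used a test on counts, which the RPKM tables do not hold. Higher and lower mean an adjusted p under 0.05, and up and down 2-fold also a log2 fold change beyond 1. Depth came from genes under 250 bases, whose RPKM are whole multiples of 1 read (within 0.05 read for 99.0% to 100% of values per library).

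Members and lists were chosen with earlier results of these data known. Library values are given for the 5 largest rises and 5 largest falls of each experiment, for members changed 2-fold, and for the 3 highest and 3 lowest with DMSO. Those of Mrps18a, Mrps18c and Mrpl18 with T-5224 were added after their values were seen. Positions are from GENCODE on NCBIM37 (mm9), copies from minimap2 2.31, and promoters from RefSeq.

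The alternatives were pseudocounts of 0.1 and 1, no filter or a mean of at least 5 RPKM, median centring, quantile normalization, no trend, the replicate block and each library left out.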

Additional observations from a re-analysis of the deposited data

How the results depend on the processing

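With T-5224, the counts of members kept their direction under every alternative tried. With each library left out in turn, 47 to 54 members were higher, 10 to 11 lower, 4 to 8 up 2-fold and 2 down 2-fold, with a median log2 fold change of 0.31 to 0.35. These fits leave 1 library in an arm, which is assumed to vary like the others. Quantile normalization lowered the median to 0.26, and the cause was not tested. The median with SB431542 was 0.09 to 0.11 with each library left out, and the count of members higher ran from 1 to 22, with 0 lower and 0 beyond 2-fold. Fitting the replicate number as a block gave 3 members higher in place of 9, where 5.28% of all genes were higher. The correlations of deviations between same-numbered libraries were −0.15, 0.15 and −0.09, and those between libraries of unlike number ran from −0.17 to 0.20. With 3 libraries a group, these values cannot show whether same-numbered libraries were paired. The T-5224 libraries and their DMSO libraries share no numbers in the labels.

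Near 0, signs changed. With SB431542, Mrpl42 was at −0.012 under quantile normalization and, leaving out libraries singly, between −0.11 and 0.24, and Mrps25 between −0.024 and 0.14. With T-5224, Mrps36 was at 0.037 under quantile normalization and, leaving out libraries singly, between −0.18 and 0.089, and Mrps33 ran from −0.014 (without DMSO replicate 2) to 0.25 (without DMSO replicate 1, adjusted p = 0.0354, limma). Mrpl48 was called higher with T-5224 under quantile normalization (0.47) and without the trend (0.27). Mrpl28 lost its call with SB431542 without a filter, under quantile normalization, without the trend and with the block. The standard errors are those of limma, which draws each gene's spread between 2 or 3 libraries a group toward a trend over all genes. They are not the spread of that gene alone.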
